A study of Homo sapiens with 2 samples.

Results

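The purine synthesis enzymes examined here are the products of 10 genes: PPAT, GART, PFAS, PAICS, ADSL and ATIC of the de novo route, IMPDH2 and GMPS of the branch to GMP, and the salvage enzymes HPRT1 and APRT. Members were taken as the array probes that the platform annotation pairs with one of these symbols, which gave 16 of the 47323 probes, at least 1 for each gene. The study used the K562 cell line, which was established from a chronic myeloid leukemia and relies on the BCR/ABL kinase. Total RNA of parental cells and of cells resistant to nilotinib (nilotinibR), a BCR/ABL inhibitor, was hybridised to HumanHT-12v4 BeadChips, with 1 array for each condition. Both cultures grew in medium with 10% fetal bovine serum. NilotinibR cells had been passaged in 0.1, then 0.3 and 1 µM nilotinib over 3 months until they grew routinely at 1 µM, while the parental cells were carried along without drug. Resistant cells were a selected population and were kept in the drug, so resistance and the presence of nilotinib cannot be told apart. With 1 array per condition, no difference below has a replicate check, no p-value can be had, and precision is limited by the number of arrays.

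Purine nucleotides are built in 2 ways. In the de novo route, a purine ring is assembled stepwise on phosphoribosyl pyrophosphate (PRPP), with carbons and nitrogens from glycine, glutamine, aspartate, carbon dioxide and formyl-tetrahydrofolate, up to inosine monophosphate (IMP), from which AMP and GMP branch off. In salvage, a ready-made base is joined to PRPP in a single step. Dividing cells draw heavily on the de novo route, several of its genes are known targets of the transcription factor MYC, and blood cells are sensitive to its blockade, as the use of the IMPDH inhibitor mycophenolic acid in transplantation shows.

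Values are the authors' deposited intensities, which are linear and still contain the background, and the log2 differences computed from them after background correction and quantile normalization, always nilotinibR minus parental. A probe was kept when its intensity exceeded the level of the dim probes on at least 1 array, 120 on the parental and 119 on the nilotinibR array. Of the 16 member probes, 15 were kept and all 15 exceeded it on both arrays. A gene's value is the mean over its kept probes, and 1.5-fold, the fold threshold of the study's methods, corresponds to 0.58 on the log2 scale. The erythroid character of K562 was present on both arrays, with 6 marker genes measured. Their deposited intensities lay between 223 and 18230 in parental and between 638 and 19115 in nilotinibR cells, and 3 of the 6 (TAL1, LMO2 and TFRC) were higher in nilotinibR cells by 1.5-fold or more. The other 3, GATA1, HBG1 and HBE1, had log2 differences of 0.14, 0.09 and -0.09. Of 15 marker genes of B, T, myeloid, epithelial and fibroblast cells, 9 were measured and none differed by 1.5-fold as a gene mean. The brightest probe of the myeloid gene LYZ, at 235 in parental and 155 in nilotinibR cells, was past it with -0.79. The other LYZ probe, near the dim level, had 0.20, and the mean was -0.30. EPCAM, an epithelial adhesion gene, lay between 216 and 1821, and no other probe of these genes exceeded 235. The part of these marker differences in the purine values was not tested, and in bulk RNA fewer cells of a type and less RNA per cell cannot be told apart.

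Most of the de novo route was lower in nilotinibR cells, the GMP-branch members IMPDH2 and GMPS were not, and the salvage members differed from each other. PFAS, ATIC, GART and PAICS were 3.15-, 1.94-, 1.71- and 1.69-fold lower, PPAT was 1.46-fold lower, just short of 1.5-fold, and ADSL was 1.18-fold higher. IMPDH2 and GMPS were 1.34- and 1.21-fold higher. APRT was 2.03-fold lower, HPRT1 1.30-fold. Thus 5 of the 10 genes were at least 1.5-fold lower and none was higher at that fold, where 8.2% of all 13206 measured genes were lower and 7.49% higher. The members were chosen with earlier results of these data known, so this contrast is a description only. Among the 3026 genes measured on both arrays that were at least as bright as the dimmest member, a comparison added after the values were seen, 15.8% were lower and 14.2% higher. Of the 15 kept probes, 8 were at least 1.5-fold lower, against 7.13% of all 25634 kept probes (6.68% were higher).

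**Figure D1:**
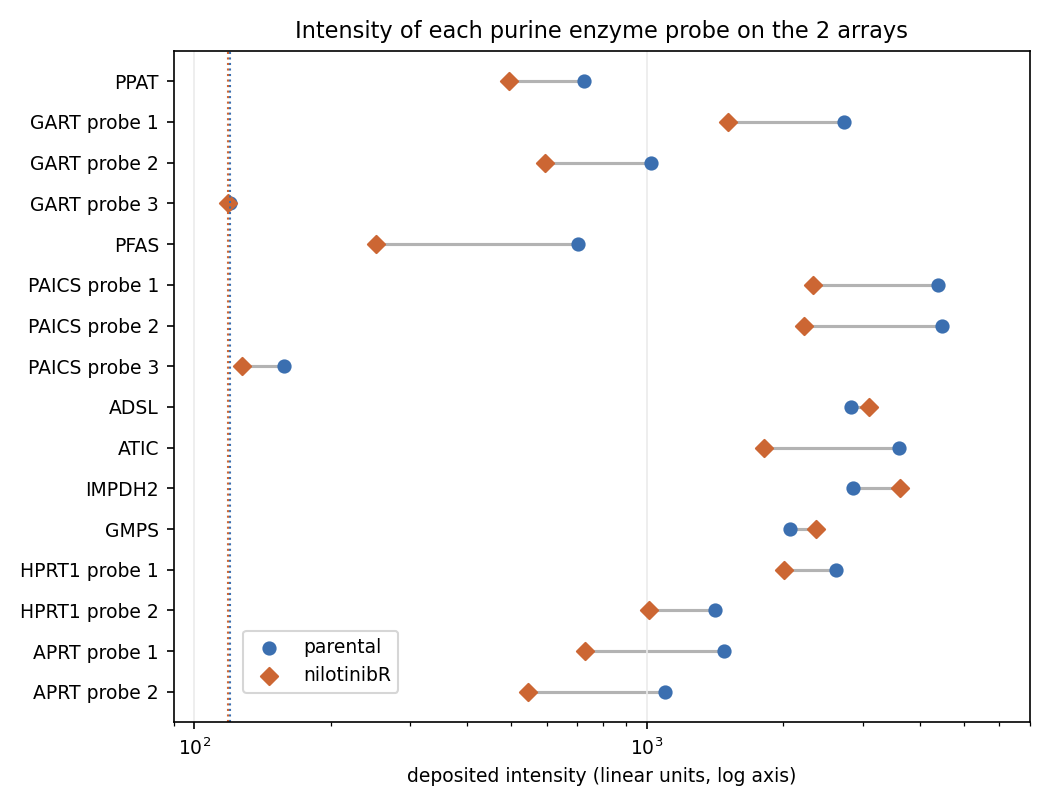
Deposited intensity (log axis) of each of the 16 probes of the purine enzymes, in pathway order, on the parental array (circles) and the nilotinibR array (diamonds), with the dim-probe level of each array as a dotted line. Every kept probe of PPAT, GART, PFAS, PAICS, ATIC, HPRT1 and APRT is lower on the nilotinibR array, those of ADSL, IMPDH2 and GMPS are higher, and GART probe 3 lies at the dim level on both.

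PPAT, the amidophosphoribosyltransferase, commits PRPP to the route and is the step that AMP and GMP inhibit by feedback. Its only probe (ILMN_1674302) had a deposited intensity of 726 in parental and 496 in nilotinibR cells. The log2 difference was -0.55, lower than in all but 1195 of the 13206 measured genes. The gene lies head to head with PAICS, another enzyme of the route, on chromosome 4. In the RefSeq promoter windows (GRCh38.p14) the PPAT start on the minus strand at 56435615 and the nearest of 3 PAICS starts on the plus strand at 56435752 leave 136 bases between them, and the other PAICS starts lie at 56410507 and 56436260. The stretch between the starts is shown because both genes, read in opposite directions from it, were lower in nilotinibR cells. It spans chr4:56435616-56435751 and is written on the PPAT strand.
PPAT and PAICS intergenic stretch: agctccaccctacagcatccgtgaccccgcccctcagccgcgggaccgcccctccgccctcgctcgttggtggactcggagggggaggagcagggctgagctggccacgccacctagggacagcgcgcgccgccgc

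PAICS carries both the carboxylase and the SAICAR synthetase activity, the steps that add carbon dioxide and aspartate. Its brightest probes had deposited intensities of 4384 (ILMN_1773760) and 4477 (ILMN_2392546) in parental cells and of 2329 and 2225 in nilotinibR cells. Their log2 differences were -0.86 and -0.96. The third probe (ILMN_2286106), at 158 and 128 close to the dim level, differed by -0.46, so that the gene mean was -0.76. All 3 probes were lower, and the dim one, where background correction leaves little signal, was the only one short of 1.5-fold. The gene mean therefore includes a probe near the dim level, and PPAT, its neighbour, was lower by a smaller log2 difference than either bright PAICS probe.

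The promoter windows, 250 bases before to 50 after each start, were searched for CACGTG, the E-box bound by MYC and its partner MAX, which reads the same on both strands. RefSeq windows were found for 8 of the 10 members, all but ADSL and IMPDH2. PPAT, PAICS and ATIC held the motif. Of 27305 genes with a window, 8.77% held it in at least 1 window. The PPAT and PAICS matches were the same bases, chr4:56435792-56435797, which lie 182 bases before the PPAT start and 41 bases into the transcript from the nearest PAICS start. ATIC had a match starting 46 bases before its start and another at base 30 of its transcript. The 3 sites are shown with 12 bases on either side and with the E-box in capitals, at chr4:56435780-56435809, chr2:215312001-215312030 and chr2:215312076-215312105. The first is written on the PPAT strand, opposite to that of PAICS, and the others on the ATIC strand.
PPAT and PAICS E-box: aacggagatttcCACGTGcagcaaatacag
ATIC E-box before the start: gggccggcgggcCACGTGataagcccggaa
ATIC E-box after the start: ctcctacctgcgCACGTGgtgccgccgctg
GART, PFAS, GMPS, HPRT1 and APRT had none in their windows. Other E-box sequences and bases outside the windows were not searched. A match is a description of the sequence and no evidence of binding. On the same arrays the 2 MYC probes were lower in nilotinibR cells, at 2444 against 706 and at 773 against 266 deposited units, with log2 differences of -1.80 and -1.70. MYC was the 1 of 4 measured genes in a short list of regulators that was lower at 1.5-fold, and none was higher. ATF4 and MITF had log2 differences of 0.0016 and 0.21, and MYCN, above the dim level on the parental array alone, had -0.22. The ATF4 value was the mean of 0.03 for its brightest probe and of -0.29 and 0.26 for the others. The part of MYC in the purine differences was not tested.

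GART is a single protein with 3 activities of the route, the second, the third and the fifth step, and takes up the first formyl group. Its brightest probe (ILMN_1679476) had a deposited intensity of 2716 in parental and 1509 in nilotinibR cells, and the second (ILMN_1793220) of 1022 and 596. These probes are annotated to different transcripts and their log2 differences were both -0.77. A further probe (ILMN_1800020), annotated to the same transcript as the second, was dim on both arrays, at 120 and 119. It was left out, and with it the mean would be -0.51, under 1.5-fold.

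PFAS takes an amide nitrogen from glutamine and had the largest difference of the 10 genes. Its probe (ILMN_1755862) had deposited intensities of 704 in parental and 252 in nilotinibR cells. The log2 difference was -1.65, and only 75 of the 13206 measured genes had a lower one. The value rests on 1 probe and has no check by a second.

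ATIC performs the last formyl transfer and closes the ring to IMP. Its probe (ILMN_1673991) had 3600 deposited units in parental and 1808 in nilotinibR cells, a log2 difference of -0.95. Both enzymes that use formyl-tetrahydrofolate, GART and ATIC, were thus at least 1.5-fold lower. ADSL lies between PAICS and ATIC and removes fumarate, in the de novo route and again on the way from IMP to AMP. Its probe (ILMN_1790757) had 2825 units in parental and 3094 in nilotinibR cells, a log2 difference of 0.23, and 75.8% of all measured genes lay at or under this value. It was the only de novo gene that was not lower in nilotinibR cells.

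**Figure D2:**
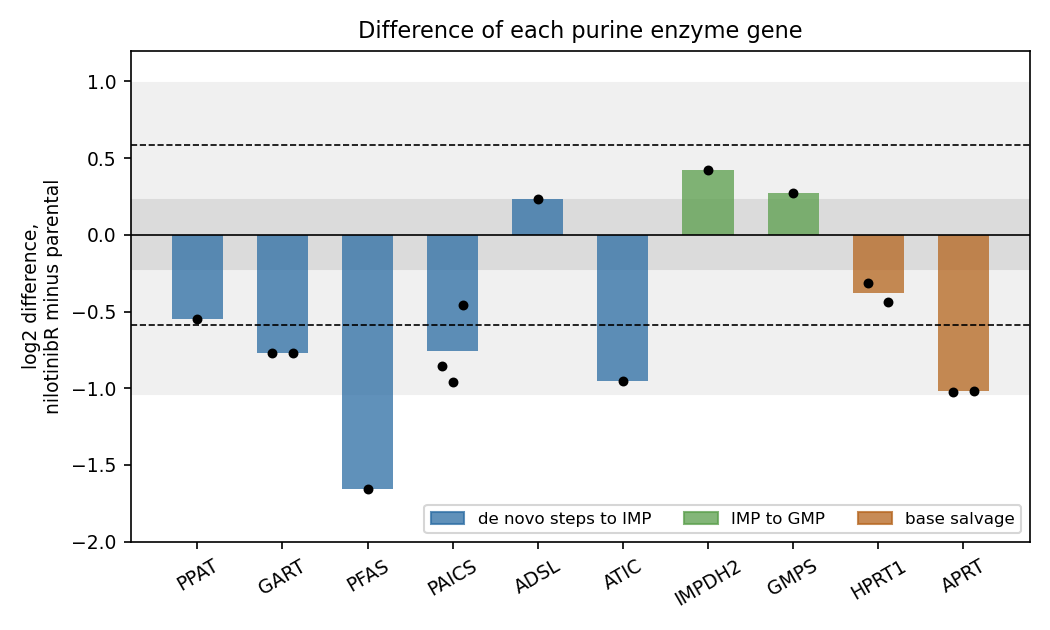
Log2 difference (nilotinibR minus parental) of the 10 purine enzyme genes in pathway order, with bars for genes, points for their kept probes, dashed lines at 1.5-fold and grey bands for the middle 50% and 95% of all measured genes. GART, PFAS, PAICS, ATIC and APRT lie beyond the lower dashed line, PFAS outside the wider band, and ADSL, IMPDH2 and GMPS above 0.

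IMPDH2, the inosine monophosphate dehydrogenase that limits the rate of GMP synthesis and is the main form in dividing cells, and GMPS, which aminates the product with glutamine, turn IMP into GMP. IMPDH2 (ILMN_1705737) had a deposited intensity of 2855 in parental and 3627 in nilotinibR cells, and GMPS (ILMN_3242205) of 2065 and 2356. The log2 differences were 0.42 and 0.27, both short of 1.5-fold, and higher than 0 under the 8 other processing settings as well. The members that draw nitrogen from glutamine therefore did not move together, with log2 differences of -0.55 for PPAT, -1.65 for PFAS and 0.27 for GMPS.

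IMPDH1, the other inosine monophosphate dehydrogenase and a close relative of IMPDH2, went the other way by its brightest probe, which had 776 deposited units in parental and 384 in nilotinibR cells and a log2 difference of -1.07. A second probe, at 174 and 131, differed by -0.61. The remaining 2 IMPDH1 probes lay at or near the dim level, between 112 and 124, with log2 differences of -0.12 and 0.09. The mean of the 4 kept probes was -0.43, so the gene did not reach 1.5-fold although its brightest probe was past 2-fold. Probe sequences were not compared, and signal shared between the isozymes was not tested. For the first step from IMP to AMP, ADSS1, the muscle form of adenylosuccinate synthase, had a probe with 158 deposited units in parental and 307 in nilotinibR cells (log2 difference 1.22) and one near the dim level, at 134 and 125 (-0.14). Its mean of 0.54 was short of 1.5-fold, which it passed by its brightest probe and, at 0.66, with a background offset of 16. The ubiquitous form ADSS2 had no named probe.

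HPRT1 joins hypoxanthine or guanine to PRPP and is the enzyme missing in Lesch-Nyhan disease. Its probes had deposited intensities of 2618 and 2006 (ILMN_2056975) and of 1409 and 1011 (ILMN_1736940) in parental and nilotinibR cells, with log2 differences of -0.31 and -0.44. Both were lower and neither reached 1.5-fold. APRT does the same for adenine. Its probes had 1481 (ILMN_1722491) and 1093 (ILMN_1726410) deposited units in parental cells against 728 and 546 in nilotinibR cells. The log2 differences were -1.02 and -1.02, and each was the larger decrease when set against either HPRT1 probe.

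Set side by side, the de novo steps and the salvage pair did not separate. The 6 de novo genes had a median log2 difference of -0.76, from -1.65 for PFAS to 0.23 for ADSL, and HPRT1 and APRT had a mean of -0.70, between -0.38 and -1.02, so both salvage values lay inside the de novo range. The difference between these summaries was -0.07. It was -0.14 when each gene was represented by its brightest probe and 0.044 without a filter on dim probes, so its sign depended on the handling of dim probes. At 1.5-fold, 4 of 6 de novo genes and 1 of 2 salvage genes were lower. The comparison holds for this pair only. The wider salvage list also holds genes of enzymes that act on nucleosides, such as PNP, ADK and DGUOK, and not by joining a base to PRPP. Over its 7 measured genes the median was -0.41, a smaller decrease than the de novo median, and 1 gene was lower at 1.5-fold. The GMP-branch members IMPDH2 and GMPS had a median of 0.35, above the de novo median and the mean of HPRT1 and APRT. IMPDH1, measured for the same step as IMPDH2 but no member, had -0.43. The median over all measured genes was -0.0029. For the 4 members with more than 1 kept probe, the SD between a gene's probes ran from 0.0038 for GART to 0.26 for PAICS on the log2 scale, with a median of 0.047. Probes of a gene share the same 2 arrays, so that spread is no replicate. It covers differences between probes and not the spread between arrays or cultures, and for PAICS it includes the probe near the dim level.

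**Figure D3:**
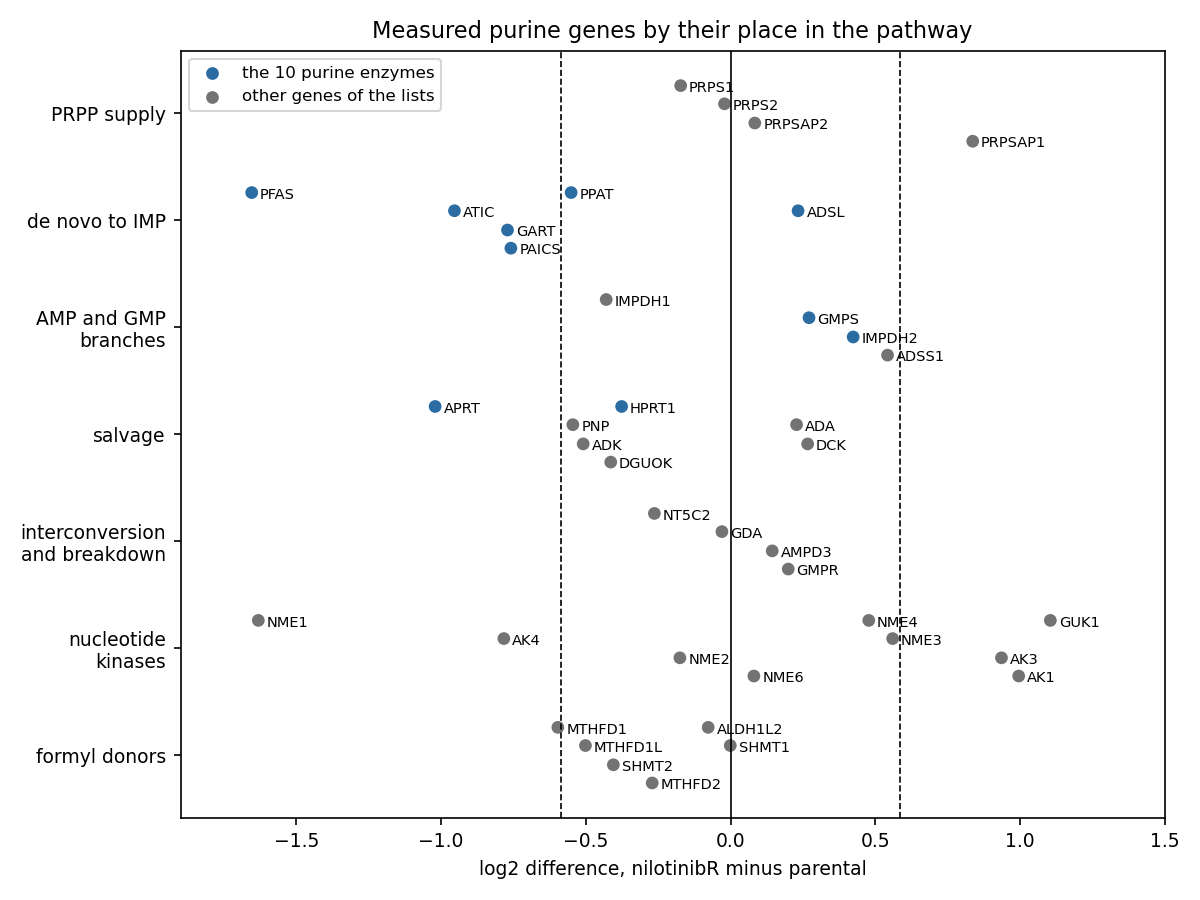
Log2 difference (nilotinibR minus parental) of every measured gene on 7 lists of purine metabolism, with the 10 purine enzymes in blue, other genes in grey and dashed lines at 1.5-fold. De novo genes lie mostly to the left, the PRPP-supply and interconversion genes near 0 apart from PRPSAP1, and nucleotide kinases spread from NME1 at -1.63 to GUK1 at 1.10.

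Pooled over the lists, the rest of purine metabolism showed no common direction. Of 41 further genes on 7 lists of the pathway, 30 were measured, 3 were at least 1.5-fold lower, 4 higher and 23 neither. Their median log2 difference was -0.03, but the lists differed, with medians of -0.34 for the formyl donors and 0.48 for the nucleotide kinases. Among all 13206 measured genes, 8.2% were lower and 7.49% higher at that fold, the shares to set beside the list counts below as well. The supply of PRPP, the substrate of both routes, differed little in its synthetase genes, with log2 differences of -0.17 for PRPS1 and -0.02 for PRPS2. PRPSAP1, which encodes a protein that associates with the synthetases, had 757 deposited units in parental and 1276 in nilotinibR cells by its 1 probe, a log2 difference of 0.84, whereas its relative PRPSAP2 had 0.08.

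Of 6 measured formyl-donor genes, 1 was lower at 1.5-fold and none higher, with a median of -0.34. MTHFD1, which makes cytosolic formyl-tetrahydrofolate, had 270 deposited units in parental and 194 in nilotinibR cells and a log2 difference of -0.60, just past 1.5-fold and under it in the deposited values and without background correction. MTHFD1L, SHMT2 and MTHFD2, which act in mitochondria, had -0.50, -0.40 and -0.27. The cytosolic SHMT1 had -0.00086, the mean of -0.09 for its bright probe and 0.09 for a probe near the dim level. The mitochondrial ALDH1L2, above the dim level on the parental array alone, had -0.08.

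Of 7 measured salvage genes, APRT was the only one at least 1.5-fold lower, though 2 were with an offset of 16 or with either scaling. PNP, which frees hypoxanthine and guanine from their nucleosides, had -0.54, the adenosine kinase gene ADK -0.51 and the deoxyguanosine kinase gene DGUOK -0.41, while DCK and ADA had 0.27 and 0.23. The ADK mean included its dimmest kept probe, at 207 and 130 deposited units, with -0.92. The brighter ADK probes, at 1410 and 420 units in parental cells, had -0.26 and -0.34. MTAP, which releases adenine for APRT, had 1 probe, which was dim on both arrays at 116 and 111. None of the 4 measured interconversion and breakdown genes (AMPD3, GMPR, NT5C2 and GDA) differed by 1.5-fold, and the breakdown enzyme gene XDH was dim on both arrays.

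Nucleotide kinases, which carry the products on to triphosphates, went both ways, with 2 of 9 measured genes lower and 3 higher. NME1, a nucleoside diphosphate kinase gene, was 3.10-fold lower, and its 3 probes, the brightest at 7509 and 2369 deposited units, all had log2 differences between -1.87 and -1.37. AK4, a mitochondrial adenylate kinase gene, was 1.72-fold lower as the mean of 4 kept probes. These had log2 differences of -1.30, -0.94, -0.57 and -0.33, the last 2 short of 1.5-fold. GUK1, the guanylate kinase that phosphorylates GMP, had 1498 units in parental and 3012 in nilotinibR cells, a log2 difference of 1.10 by 1 probe. AK1 was 1.99-fold and AK3 1.91-fold higher, also by 1 probe each.

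**Figure D4:**
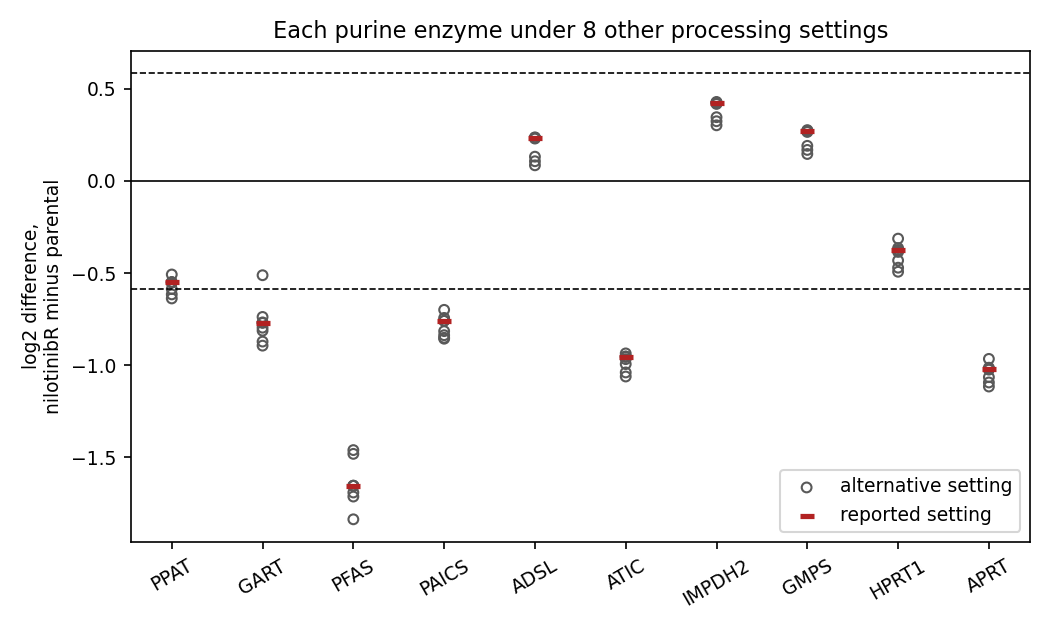
Log2 difference (nilotinibR minus parental) of each purine enzyme gene under the reported setting (red dash) and 8 other processing settings (circles), with dashed lines at 1.5-fold. No gene changes sign, PPAT crosses the lower line under 3 settings and GART under 1.

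Across the 8 settings no member changed direction. PFAS lay between -1.84 and -1.46, APRT between -1.12 and -0.97, ATIC between -1.06 and -0.94 and PAICS between -0.86 and -0.70, all at least 1.5-fold lower throughout. PPAT, between -0.64 and -0.51, sat at the threshold and passed it with an offset of 16 and with median or 75th percentile scaling. HPRT1 stayed between -0.49 and -0.31, ADSL between 0.08 and 0.24, GMPS between 0.15 and 0.28 and IMPDH2 between 0.30 and 0.43.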

How the data were processed

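The authors hybridised total RNA to HumanHT-12v4 BeadChips, processed the scans with GenomeStudio and named robust multichip average (RMA Express) for normalization. The deposited intensities are linear, with the background left in, between 92.8 and 21126 (parental) and 88.2 and 22044 (nilotinibR). The sources used here do not say which of these steps they include. In another table, 4 columns of signals and detection p-values were not used, since no sample label matches their names.

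Intensities were corrected with normexp (offset 50), quantile normalized and put on the log2 scale (limma 3.58.1, R 4.3.3). Adding the offset shrinks the folds of dim genes. The dim level was the mode of the dim probes (111 and 109) plus the distance that 5% of normally distributed background exceeds (120 and 119). The platform annotation named 1 gene for 30113 of 47323 probes and several genes for 8, and left 17202 unnamed. RefSeq, where 30074 were found, gave current symbols. Promoters came from RefSeq (GRCh38.p14). The methods' 2-sample test, which requires replicates, was not run. The steps were tested on simulated data with folds planted in bright probes, so folds of probes near the dim level were not tested.

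The members, lists and thresholds were chosen with earlier results of these data known. Named were all 10 members with every probe, genes of the other lists past 1.5-fold, IMPDH1, ADSS1, ADSS2 and MYC. Further list genes were named after their values were seen. The alternatives were 3 other background settings, 2 scalings, 2 dim-probe filters, a gene's brightest probe alone and a 2-fold threshold.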

Additional observations from a re-analysis of the deposited data

How the results depend on the processing

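No paired analysis was possible because each condition has a single array, and none could be left out. The planned normalization of scanner signals with detection p-values was not run, since their columns match no sample label. At 2-fold, 2 members and 3 member probes were lower, where 366 of all 13206 measured genes were lower and 321 higher. Under the other settings between 4 and 6 members were lower and none was higher. Over all genes, these settings gave between 828 and 1655 lower and between 669 and 1570 higher. The 4 members were found without a filter, where more genes were measured and 996 were lower and 913 higher. The 6 were found with an offset of 16, median scaling and 75th percentile scaling. Of the same 13206 genes, these had 1655, 1198 and 1266 lower and 1570, 886 and 837 higher. GART dropped under 1.5-fold without a filter (-0.51), which adds its dim probe, and PPAT passed it with an offset of 16 (-0.59), median scaling (-0.62) and 75th percentile scaling (-0.64). The de novo median was -0.84 with median scaling, -0.87 with 75th percentile scaling, -0.82 with an offset of 16, -0.81 by the brightest probe and -0.65 without a filter. The mean of HPRT1 and APRT was -0.78 and -0.80 with the scalings. De novo minus salvage was -0.14 by the brightest probe and 0.044 without a filter. The most genes past 1.5-fold, 1655 lower and 1570 higher, were found with an offset of 16. At 1.5-fold, 2 formyl-donor genes were lower with 75th percentile scaling and none in the deposited values or without background correction, and 2 salvage genes were lower with an offset of 16 and with both scalings. By the brightest probe IMPDH1 was lower and ADSS1 higher at 1.5-fold, and ADSS1 was also higher with an offset of 16 (0.66). Signal over background limits the dim probes of PAICS, IMPDH1 and ADSS1, and 1 array per condition limits every value.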
